A study of Mus musculus with 6 samples.

Results

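The Ikaros family of zinc finger transcription factors was followed in mouse liver iNKT1 cells as 4 genes, Ikzf1 (Ikaros), Ikzf2 (Helios), Ikzf3 (Aiolos) and Ikzf5 (Pegasus), which were chosen by name out of 12942 genes listed. All 4 had a row, and all 4 passed the filter on low values. Invariant NKT cells carry a T cell receptor for lipids shown by CD1d, and iNKT1 cells are their type 1 subset, which makes interferon gamma. They were sorted from liver by a CD1d tetramer and YFP, and RNA was sequenced from 3 libraries per group, numbered 1, 2 and 4. In each group the label of replicate 1 joins 2 sample codes, without saying whether cells or reads were pooled. The titles of control replicate 4 and cKOHet replicate 1 read iNKT, and those of the other libraries iNKT1. In the cKOHet group the genotype was Tbx21Cre with Ets1F/F, Tbx21F/+ and Rosa26-YFP+. In the control group it was Tbx21Cre with Rosa26-YFP+. Both groups thus share the Cre and the reporter, so that only cells that have used Tbx21, the gene of the type 1 factor T-bet, carry YFP and can lose floxed alleles. By genotype the cKOHet cells are set to lose both copies of Ets1, an Ets-family transcription factor, together with 1 copy of Tbx21. The effects of these losses cannot be told apart here. The labels give neither the mice behind each library nor their age, and p-values measure only the spread between these libraries.

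Ikaros family proteins bind DNA through zinc fingers near their N terminus, which in Ikaros, Helios and Aiolos read sites with a GGGAA core. Family proteins pair with each other through a second set of fingers at the C terminus. They recruit chromatin complexes, among them NuRD, and act as repressors or activators. Ikaros is used throughout lymphocyte development, Aiolos in B cells and in mature T and NK cells, and Helios is known from early T cells, regulatory T cells and activated or self-reactive T cells. Pegasus is the most divergent member, and Eos, the product of Ikzf4, is a further relative known as a partner of Foxp3 in regulatory T cells.

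The coding sequence of fingers 2 and 3 shows how alike the members are where they contact DNA, and whether reads could be shared between them. The stretch is 147 bases long and was read from GENCODE M21 transcripts on mm10. For Pegasus, which has fewer fingers before the C-terminal pair, fingers 1 and 2 are shown, which lie in 2 exons. Capitals mark bases that differ from Ikzf1 at the same position of the stretch.
Ikzf1 (Ikaros, chr11:11754024-11754170, plus strand): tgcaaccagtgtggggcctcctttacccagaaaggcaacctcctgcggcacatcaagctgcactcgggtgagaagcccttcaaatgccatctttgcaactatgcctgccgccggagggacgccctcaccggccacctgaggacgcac
Ikzf2 (Helios, chr1:69570497-69570643, minus strand): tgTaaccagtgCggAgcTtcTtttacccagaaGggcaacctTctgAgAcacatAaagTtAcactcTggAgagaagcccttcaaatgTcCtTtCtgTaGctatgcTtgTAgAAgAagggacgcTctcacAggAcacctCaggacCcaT
Ikzf3 (Aiolos, chr11:98488856-98489002, minus strand): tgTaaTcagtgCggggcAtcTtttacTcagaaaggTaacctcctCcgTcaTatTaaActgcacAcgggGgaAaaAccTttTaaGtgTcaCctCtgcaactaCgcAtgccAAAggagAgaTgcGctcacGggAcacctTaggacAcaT
Ikzf5 (Pegasus, chr7:131392501-131393821, minus strand): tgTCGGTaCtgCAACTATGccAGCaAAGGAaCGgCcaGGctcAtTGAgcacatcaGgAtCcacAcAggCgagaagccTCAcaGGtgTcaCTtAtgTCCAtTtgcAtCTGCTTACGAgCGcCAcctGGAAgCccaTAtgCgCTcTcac
Helios differs from Ikaros at 32 of these bases (78.2% identity) and Aiolos at 35 (76.2%), while Pegasus differs at 77 (47.6%). The longest run of bases shared exactly by any transcripts of 2 members was 26, between Ikzf1 and Ikzf3, and was 17 between Ikzf1 and Ikzf2 and 20 between Ikzf2 and Ikzf3. A read that spans more than 26 bases could therefore not match 2 of the 4 members without a mismatch. The read length is not given in the sources used here.

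Levels are normalised read counts, the unit of the deposited table, whose columns sum to between 4996523 and 5219483 per library. Ets1, the targeted gene, was at 462, 596 and 441 in cKOHet libraries, against 7391, 6255 and 7787 in control libraries (log2 fold change -3.84, SE 0.14, limma adjusted p = 1.06e-10). Tbx21 was at 2174, 2316 and 2127 in cKOHet libraries, against 2434, 2504 and 2765 in control libraries, without overlap. It was not called (log2 fold change -0.22, 95% interval -0.46 to 0.02, limma adjusted p = 0.196). Whether its floxed copy was lost was not tested. A gene is called at a limma adjusted p under 0.05 over all 11226 genes tested. Of these genes 21.4% passed, 11.5% as higher and 9.97% as lower in cKOHet, and the groups did not overlap at 35.8%. Replicate 4 of each group stood apart by Xist, the transcript of the inactive X chromosome, at 0.08 in the cKOHet and 1.17 in the control library, against 4337 to 5657 in the other libraries. Results on family, partner and pathway genes are given without these libraries where that ends a call.

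Of the 4 members, 2 rose in cKOHet libraries (Ikzf2 and Ikzf3), none fell, and 2 did not pass the test (Ikzf1 and Ikzf5). Among all tested genes 11.5% rose and 9.97% fell. At both risen members every cKOHet library lay above every control library, as at 19.1% of all tested genes. The median log2 fold change of the members was 0.57, against 0.01 over all genes tested. In bulk RNA, fewer cells of a type and less RNA per cell cannot be told apart.

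Ikzf2, which encodes Helios (ENSMUSG00000025997, mm10 chromosome 1, 69531214 to 69687245, minus strand), rose most. It was at 980.0, 1054 and 1005 in cKOHet libraries, against 281, 221 and 193 in control libraries. No control library came near the cKOHet libraries, which lay close together (1013 ± 37.7 in cKOHet and 231.5 ± 45.4 in control libraries; SD, n = 3 each). The log2 fold change was 2.14 (SE 0.15, 95% interval 1.83 to 2.46, limma adjusted p = 7.55e-08), or 4.41-fold. With any single library left out it was 2.02 to 2.29, and among the 4 high-Xist libraries it was 2.02 (adjusted p = 2.8e-05).

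Ikzf3, which encodes Aiolos (ENSMUSG00000018168, chromosome 11, 98464902 to 98546031, minus strand), also rose. It was at 3939, 4924 and 5661 in cKOHet libraries, against 2459, 2292 and 2728 in control libraries. All cKOHet libraries lay above all controls, with more spread among themselves (4841 ± 864 in cKOHet and 2493 ± 220 in control libraries; SD, n = 3 each). Its log2 fold change was 0.95 (SE 0.14, 95% interval 0.65 to 1.24, limma adjusted p = 0.000143), or 1.93-fold. It was 0.82 without cKOHet replicate 4, the library with the most Ikzf3, and 1.09 without cKOHet replicate 1, the library with the least, and stayed called in both.

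Ikzf1, which encodes Ikaros itself (ENSMUSG00000018654, chromosome 11, 11685003 to 11772926, plus strand), was abundant and was not called. It was at 3530, 3693 and 4780 in cKOHet libraries, against 3488, 3369 and 3606 in control libraries. A single library, cKOHet replicate 4, stood above the rest, and cKOHet replicate 1 lay within the range of the controls. The log2 fold change was 0.19 (95% interval -0.09 to 0.46, limma adjusted p = 0.367), and it was 0.05 without cKOHet replicate 4. The interval leaves room for a change of up to 0.46 on the log2 scale, well below the lower bound of the interval for Ikzf2.

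Ikzf5, which encodes Pegasus (ENSMUSG00000040167, chromosome 7, 131388652 to 131410521, minus strand), was at 182, 264 and 242 in cKOHet libraries, against 209.5, 272 and 191 in control libraries. The groups overlapped (log2 fold change 0.03, 95% interval -0.38 to 0.44, limma adjusted p = 0.934). Its level is uncertain for another reason. Of its 5721 annotated exonic bases, 4652 (81.3%) also lie in exons of Pstk, a kinase gene of selenocysteine synthesis on the opposite strand, and whether counting used the strand is not given in the sources used here. Pstk was at 61.4 to 91.8 in cKOHet and 45.5 to 92.4 in control libraries and was not called (adjusted p = 0.686).

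**Figure D1:**
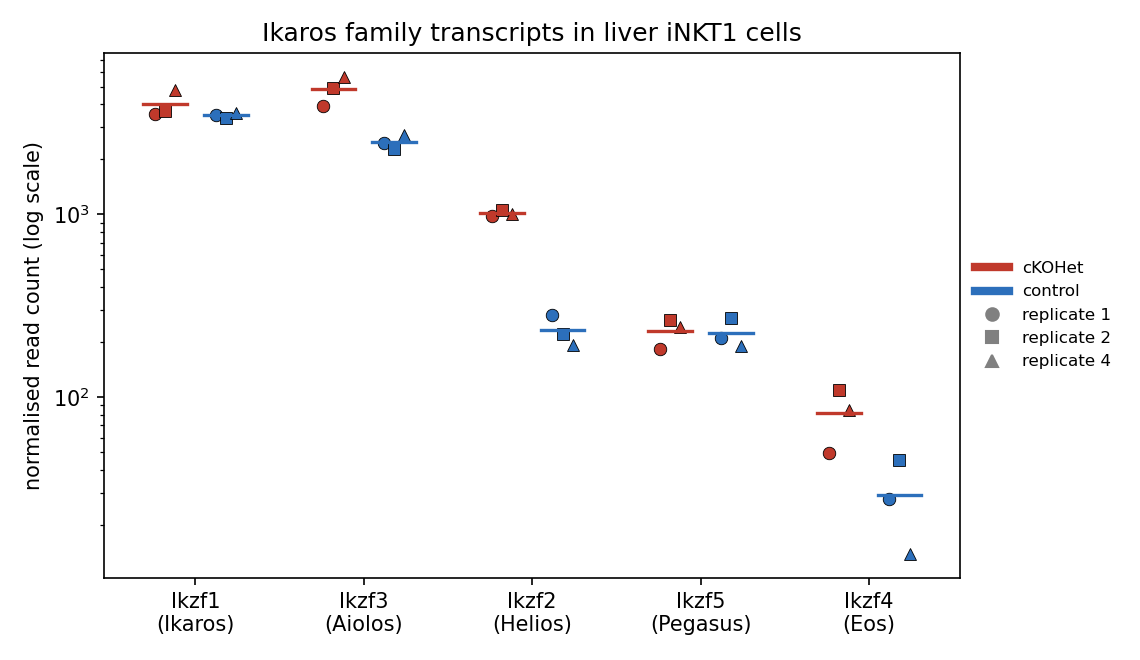
Normalised read count (log axis) of each Ikaros family gene and of Ikzf4 in every library, cKOHet in red left of control in blue. Symbols mark replicates 1, 2 and 4 and lines the group mean (n = 3). Ikzf2 lies at 980.0 to 1054 in cKOHet and 193 to 281 in control libraries, while the groups overlap at Ikzf1 and Ikzf5.

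Ikzf4, which encodes Eos (ENSMUSG00000002578, chromosome 10, 128630843 to 128645991), is not one of the 4 members and is given for comparison. It was at 49.4, 109.6 and 85.3 in cKOHet libraries, against 27.6, 45.4 and 13.9 in control libraries. The groups did not overlap, but cKOHet replicate 1 was close to control replicate 2. It was called higher (log2 fold change 1.54, SE 0.42, limma adjusted p = 0.0161). The call ended without cKOHet replicate 2 (1.29, adjusted p = 0.0868), cKOHet replicate 4 (1.47, adjusted p = 0.0685) or control replicate 4 (1.11, adjusted p = 0.0706), and among the high-Xist libraries (1.04, adjusted p = 0.177).

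**Figure D2:**
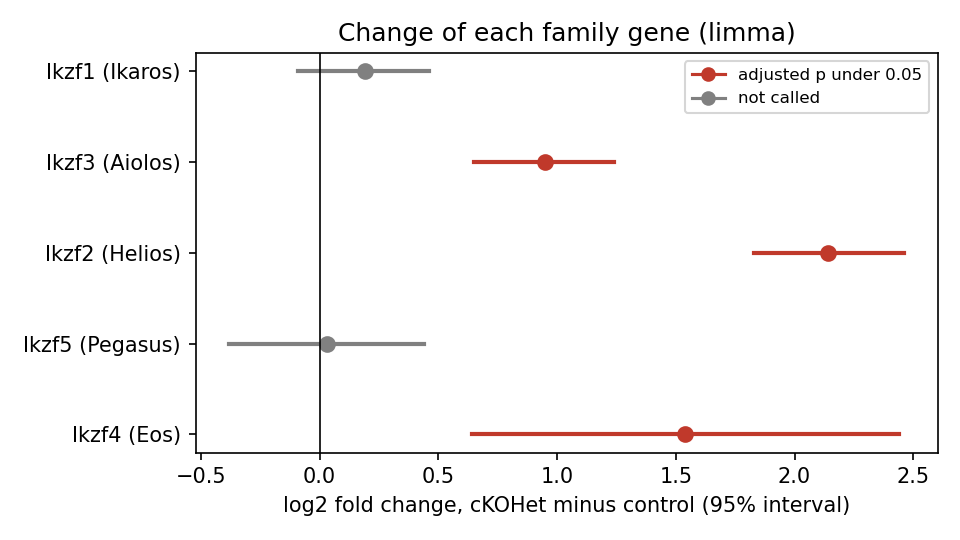
Log2 fold change of each gene (cKOHet minus control, points) with its 95% interval (bars) from limma, in red where the adjusted p is under 0.05. The interval of Ikzf2 (1.83 to 2.46) lies above that of Ikzf3 (0.65 to 1.24), and those of Ikzf1 and Ikzf5 include 0.

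The changes of the members were compared with each other by the log2 ratio within each library, over all 6 pairs. The ratio of Ikzf3 to Ikzf2 changed by -1.20 (SE 0.25), with the larger rise in Ikzf2. The change of Ikzf2 exceeded that of Ikzf1 by 1.96 (SE 0.22), and the change of Ikzf3 exceeded that of Ikzf1 by 0.76 (SE 0.09). The ratio of Ikzf5 to Ikzf2 changed by -2.11 (SE 0.25) and that of Ikzf5 to Ikzf3 by -0.91 (SE 0.24). The cKOHet and control libraries did not overlap in any of these 5 ratios. In the exact two-sided permutation test each had p = 0.1, the smallest value that 3 against 3 libraries allow, and 0.12 after Benjamini-Hochberg adjustment over the 6 pairs, so that this test cannot reach 0.05 here. The ratio of Ikzf5 to Ikzf1 changed by -0.15 (SE 0.24, exact permutation p = 0.5, adjusted 0.5), with overlap.

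Per kb of annotated exon, which allows levels of different genes to be compared, Ikaros and Aiolos made up most of the family. Ikzf1 was at 693 ± 118 normalised reads per kb in cKOHet and 604 ± 20.5 in control libraries, and Ikzf3 at 553 ± 98.7 in cKOHet and 285 ± 25.1 in control libraries. Ikzf2 was at 87.2 ± 3.24 per kb in cKOHet and 19.9 ± 3.91 in control libraries, and Ikzf5 at 40.1 ± 7.42 in cKOHet and 39.2 ± 7.40 in control libraries (SD, n = 3 each). On this scale Helios ranked above Pegasus in every cKOHet library and below it in every control library, within the limit on the Pegasus level given above. Ikzf4 was lowest throughout, at 13.6 ± 5.06 per kb in cKOHet and 4.83 ± 2.64 in control libraries.

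The order of Ikaros and Aiolos depended on the length used. With the longest annotated coding transcript in place of all exons, Ikzf3 was at 1320 ± 236 per kb in cKOHet and 682 ± 60.2 in control libraries, and Ikzf1 at 775 ± 132 in cKOHet and 676 ± 22.9 in control libraries. On that scale Ikzf3 was above Ikzf1 in every cKOHet library, and the controls overlapped. The order of Helios and Pegasus was the same on these 2 scales, with Ikzf2 at 109 ± 4.06 per kb of transcript in cKOHet and 25.0 ± 4.90 in control libraries. Ikzf5 was at 51.8 ± 9.58 in cKOHet and 50.6 ± 9.56 in control libraries on that scale. Per kb of coding sequence, Helios was again above Pegasus in every cKOHet library, but the order differed among the control libraries. There Ikzf2 was at 176, 138 and 121 and Ikzf5 at 167, 216 and 152, so that Helios was the higher in control replicate 1. On the coding scale Ikzf3 was at 2590, 3240 and 3720 in cKOHet libraries, above Ikzf1 at 2200, 2300 and 2980. In control libraries Ikzf3 was below Ikzf1, at 1620, 1510 and 1790 against 2170, 2100 and 2250.

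As a share of the summed level per kb of exon, Helios made up 7.17%, 6.78% and 5.40% of the 4 genes in cKOHet libraries, against 2.56%, 2.08% and 1.68% in control libraries. Aiolos made up 38.2%, 42.0% and 40.3% in cKOHet libraries, against 29.7%, 28.7% and 31.6% in control libraries. Ikaros had the complementary pattern, at 51.9%, 47.8% and 51.6% in cKOHet libraries, against 63.9%, 64.0% and 63.3% in control libraries. The groups did not overlap in any of these 3 shares. The summed level of the 4 genes was 1177, 1339 and 1603 per kb in cKOHet libraries, against 946, 912 and 986 in control libraries. Replicate 4 had the highest sum in each group. Per kb of coding sequence in place of exon, the Helios share averaged 9.91% in cKOHet and 3.52% in control libraries. The shares of Ikaros and Aiolos depend on the length as well. Per kb of the longest coding transcript or of coding sequence, Aiolos and not Ikaros was the largest part in every cKOHet library.

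**Figure D3:**
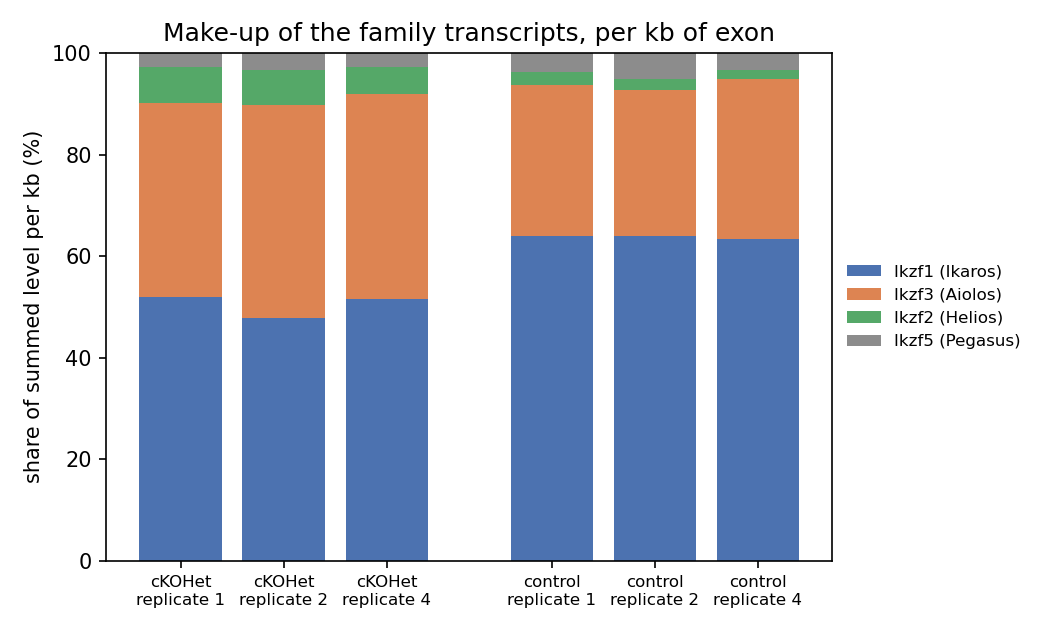
Share of each gene in the summed level per kb of exon of the 4 family genes (percent), with a bar for every library and cKOHet left of control. Helios takes up 5.40% to 7.17% of the cKOHet bars and 1.68% to 2.56% of the control bars, and Aiolos 38.2% to 42.0% in cKOHet and 28.7% to 31.6% in control bars. With the longest coding transcript or the coding sequence as length, Aiolos lay above Ikaros in every cKOHet library.

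The genes next to the members on the chromosome were not called. Beside Ikzf3, Grb7 (9.53 kb away) was at 8.07 to 40.2 in cKOHet and 6.41 to 13.8 in control libraries (adjusted p = 0.227), and Ormdl3 (35.2 kb away), a regulator of sphingolipid synthesis, was at 303 to 353 in cKOHet and 230.0 to 311 in control libraries (adjusted p = 0.478). The nearest tested genes to Ikzf2 lay far off, Lancl1 at 2492342 bases and Bard1 at 1340253 bases, with adjusted p = 0.553 and 0.662. Fignl1 and Zpbp beside Ikzf1 had adjusted p = 0.773 and 0.97. Beside Ikzf5, Acadsb starts 80 bases away on the other strand. It was at 192 to 207 in cKOHet and 107 to 171 in control libraries, without overlap, and was not called (adjusted p = 0.136). GENCODE M21 also annotates intronic and antisense noncoding genes within Ikzf2, which were not analysed here, so that reads from them cannot be told from Ikzf2 where they share exons.

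Ikaros proteins act with chromatin complexes and are themselves controlled by kinases and by protein degradation. Among 49 genes of these partners, 48 were tested (all that had a row), of which 3 rose, 3 fell and 42 did not pass the test. These calls are 12.5% of the partner genes, against 21.4% of all genes tested. The median log2 fold change of the partner genes was 0.01, the same as over all genes tested, and the median of their absolute values was 0.15, against 0.30 over all genes. Partner genes were not matched to all genes for level, and low genes have larger errors.

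The partner that rose most was Rb1, the retinoblastoma gene, whose product restrains the cell cycle. It was at 700.0, 757 and 796 in cKOHet libraries, against 325, 324 and 355 in control libraries (log2 fold change 1.16, SE 0.13, limma adjusted p = 7.03e-06). No cKOHet library came near the controls. The other 4 tested genes of its list, the CtBP and Sin3 corepressor genes Ctbp1, Sin3a and Sin3b and the CtIP gene Rbbp8, were not called.

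Of 14 genes of NuRD, the histone deacetylase and remodelling complex that Ikaros recruits, 1 rose, 1 fell and 12 did not pass. Chd4, its remodelling ATPase, was at 2457, 2319 and 3191 in cKOHet libraries, against 2814, 2770 and 3574 in control libraries (adjusted p = 0.363). Mta1, a scaffold subunit, fell (436, 506 and 457 in cKOHet, against 610.2, 711 and 800.1 in control libraries; log2 fold change -0.59, adjusted p = 0.00504). Mbd2, a subunit that binds methylated DNA, was called higher (1300 ± 107 in cKOHet and 998 ± 127 in control libraries; log2 fold change 0.39, adjusted p = 0.0395). The Mbd2 call ended without cKOHet replicate 2 (adjusted p = 0.114) or 4 (0.106) and without control replicate 1 (0.166) or 2 (0.13), and the Mta1 call among the high-Xist libraries (0.0525).

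None of 10 SWI/SNF genes was called, with the smallest adjusted p at Smarcc2 (0.156) and Smarca4 (0.213), which encodes the ATPase Brg1. Of 8 genes of PRC2, which methylates histone H3 at lysine 27, only Aebp2, an accessory subunit, was called (1085 ± 196 in cKOHet and 763 ± 51.9 in control libraries; log2 fold change 0.49, adjusted p = 0.0199), a call that ended when cKOHet replicate 2 or 4 or control replicate 1 or 2 was left out (adjusted p 0.0599 to 0.0828) and among the high-Xist libraries (0.0874). Ezh2, the methyltransferase, was at 239 ± 27.3 in cKOHet and 259 ± 61.2 in control libraries and was not called (adjusted p = 0.773).

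Crbn encodes cereblon, the substrate receptor through which thalidomide analogues degrade Ikaros and Aiolos in human cells. It was at 434, 390.2 and 372 in cKOHet libraries, against 518, 508 and 536 in control libraries. The groups did not overlap and the gene was called lower (log2 fold change -0.39, SE 0.13, limma adjusted p = 0.0432). This call ended without any single library except cKOHet replicate 1 (adjusted p 0.0872 to 0.117) and among the high-Xist libraries (0.178). The other 4 genes of the ligase, Ddb1, Cul4a, Cul4b and Rbx1, were not called. Of the 6 genes of the kinase CK2 and the phosphatase PP1, which act on Ikaros in opposite directions, only Csnk2b, the regulatory subunit of CK2, was called (715 ± 90.7 in cKOHet and 949 ± 79.6 in control libraries; log2 fold change -0.41, adjusted p = 0.0332). Its call ended without cKOHet replicate 4 or control replicate 2 or 4 (adjusted p 0.0907 to 0.124) and among the high-Xist libraries (0.241).

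**Figure D4:**
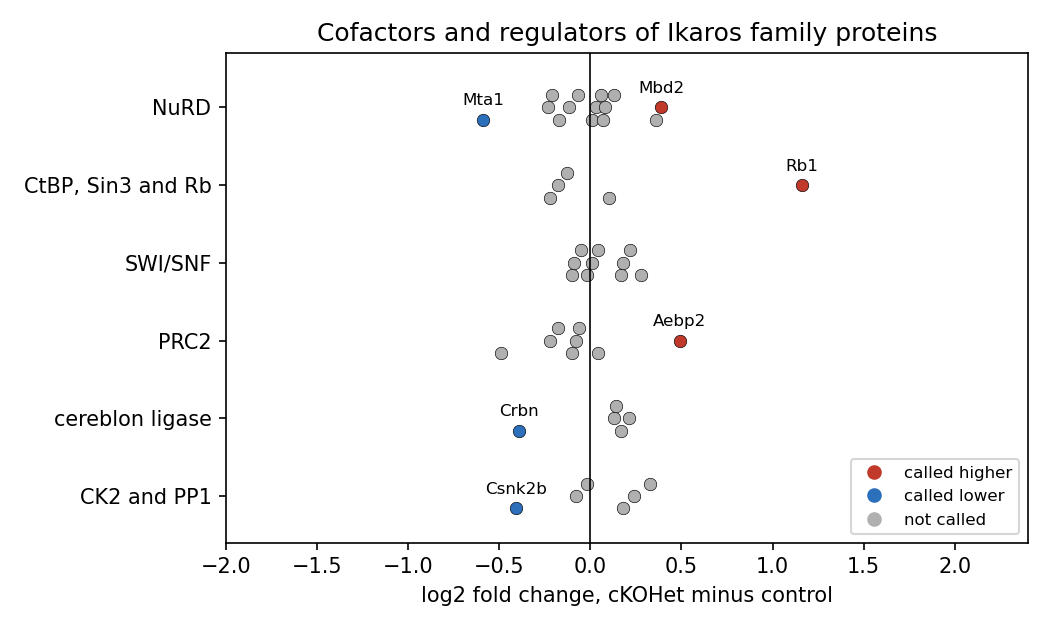
Log2 fold change (cKOHet minus control) of the 48 tested partner genes, with a row for each list and a point for each gene, red where called higher, blue where called lower and grey where not called. Most points lie near 0, and Rb1 at 1.16 lies farthest from it.

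In thymocytes, Ikaros is known to repress targets of Notch, through sites that overlap those of Rbpj, the DNA-binding factor of the pathway. Of 13 Notch pathway genes, 8 had a row and 6 passed the filter on low values. Of these 6, 1 rose, 3 fell and 2 did not pass the test. Among all tested genes 11.5% rose and 9.97% fell, and the list was drawn up with earlier results of these data known.

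Rbpj rose. It was at 4369, 6081 and 6483 in cKOHet libraries, against 1104, 952 and 937 in control libraries (log2 fold change 2.48, SE 0.15, limma adjusted p = 1.54e-08). Notch1, the receptor, fell (247, 345 and 426 in cKOHet, against 1143, 1086 and 1226 in control libraries; log2 fold change -1.79, adjusted p = 1.64e-06). Dtx1, a Notch-induced ubiquitin ligase also known as Deltex, fell as well (649.7, 676 and 483 in cKOHet, against 2238, 2567 and 3288 in control libraries; log2 fold change -2.16, adjusted p = 1.39e-07). The receptor and the induced gene thus moved opposite to the DNA-binding factor. The groups did not overlap at any of the 3, as at 35.8% of all tested genes.

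Maml2, a coactivator of Notch, fell (7.07, 85.2 and 31.3 in cKOHet, against 199, 146 and 212 in control libraries; log2 fold change -2.71, adjusted p = 0.00316). Its fitted change was -1.80 without cKOHet replicate 1 and -3.51 without cKOHet replicate 2, both called. The call ended among the high-Xist libraries (adjusted p = 0.0597) and with limma's robust variance estimate (0.0814). Notch2 and Maml1 were not called (adjusted p = 0.28 and 0.998). Nrarp, another Notch-induced gene, did not pass the filter and was at 1.02, 1.77 and 1.09 in cKOHet libraries, against 6.44, 13.6 and 19.9 in control libraries. Maml3 also stayed below the filter, and Notch3, Hes1, Hey1, Heyl and Ptcra were not analysed here.

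Genes described as targets of Ikaros family proteins in lymphocytes moved in both directions. Of 16 listed, 12 had a row and 11 passed the filter, of which 5 rose, 1 fell and 5 did not pass. Among all tested genes 11.5% were called higher and 9.97% lower, and this list too was drawn up with earlier results known. Ifng, the cytokine gene that Ikaros restrains in type 2 T cells, was at 1686, 2157 and 1566 in cKOHet libraries, against 473, 401 and 351 in control libraries (log2 fold change 2.14, SE 0.15, limma adjusted p = 7.28e-08). Prdm1, which encodes the repressor Blimp-1, was at 365, 387 and 525 in cKOHet libraries, against 192, 126 and 176 in control libraries (log2 fold change 1.37, adjusted p = 9.41e-05). Each cKOHet library lay above each control at both genes, as at 19.1% of all tested genes.

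Gata3, the type 2 lineage factor, rose (1057 ± 92.2 in cKOHet and 720.2 ± 51.8 in control libraries; log2 fold change 0.55, adjusted p = 0.00366). Il2ra, the high-affinity interleukin 2 receptor chain and a gene of Helios-positive regulatory T cells, was called higher (1464 ± 219 in cKOHet and 1074 ± 158 in control libraries; log2 fold change 0.45, adjusted p = 0.0322), and the call ended without cKOHet replicate 1 or 4 or control replicate 1 or 2 (adjusted p 0.0571 to 0.142). The coreceptor genes, whose regulatory elements Ikaros and its relatives bind in thymocytes, went apart. Cd8a was at 237, 1657 and 440.2 in cKOHet libraries, against 20.1, 10.7 and 12.8 in control libraries (log2 fold change 5.21, adjusted p = 2.19e-06), and it was 4.43 without cKOHet replicate 2 and 5.83 without cKOHet replicate 1. Cd4 was at 165, 200.03 and 184 in cKOHet libraries, against 2004, 1624 and 2058 in control libraries (log2 fold change -3.36, adjusted p = 3.17e-10). Cd8b1, Bcl2, Bcl6, Myc and Tbx21 were not called. Il2 stayed below the filter, at 0.00 to 1.07 in cKOHet and 2.14 to 8.33 in control libraries, and Il10, Dntt, Rag1 and Rag2 were not analysed here.

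**Figure D5:**
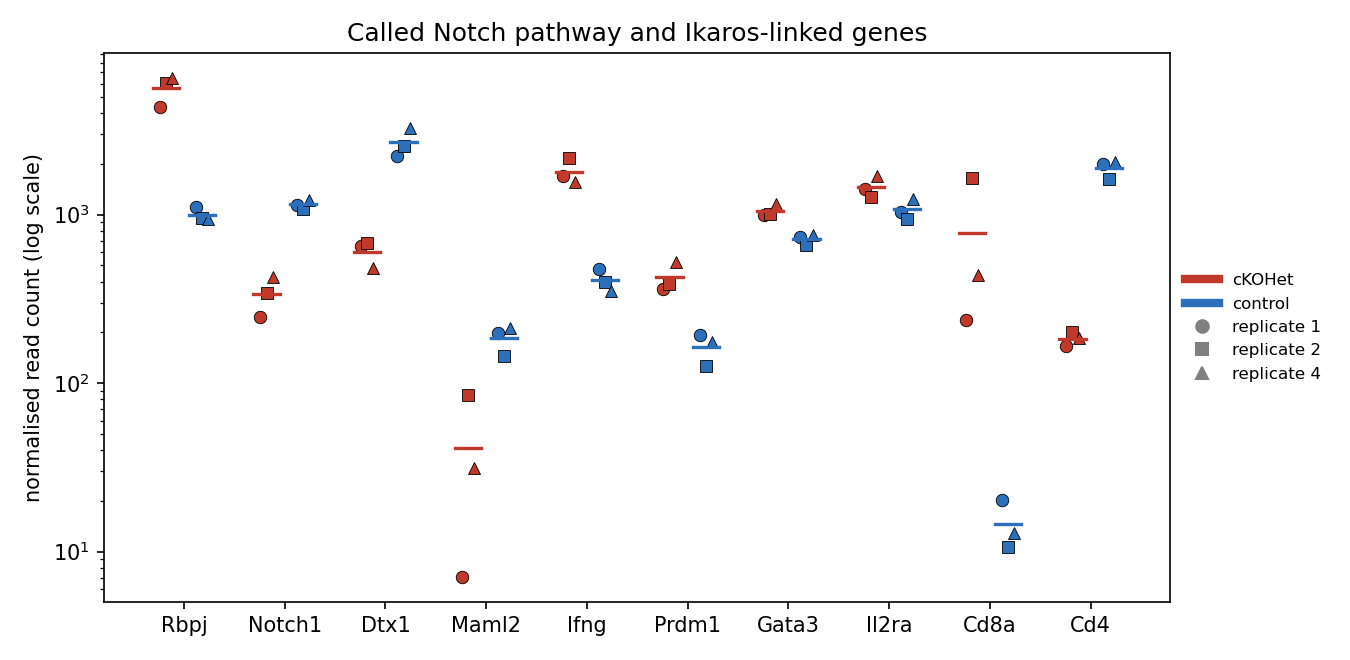
Normalised read count (log axis) of the called Notch pathway genes (Rbpj, Notch1, Dtx1, Maml2) and the called Ikaros-linked genes in every library, cKOHet in red left of control in blue, with lines at the group mean (n = 3). Rbpj lies at 4369 to 6483 in cKOHet and 937 to 1104 in control libraries, and Cd8a is spread from 237 to 1657 among the cKOHet libraries.

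Helios marks many regulatory T cells, so markers of that cell type were set beside it. Of 9 such markers 6 had a row, and Foxp3 was not analysed here. Their summed level was 1863 to 2223 in cKOHet and 2160 to 2639 in control libraries. Of the 6, only Il2ra was called higher, where 11.5% of all tested genes were called higher and 9.97% lower. Tnfrsf18 fell (510.3 ± 78.1 in cKOHet and 754 ± 5.10 in control libraries, adjusted p = 0.00562), as did Izumo1r, a folate receptor-like gene (14.8 ± 4.92 in cKOHet and 456 ± 115 in control libraries, adjusted p = 1.54e-08), and Ctla4, Tnfrsf4 and Nrp1 were not called. Ctla4 was low in every library, at 4.04 to 14.9 in cKOHet and 10.1 to 15.8 in control libraries.

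The label of the cells was checked against 10 iNKT1 markers, all of which had a row, with a summed level of 42750 to 47960 in cKOHet and 48990 to 53140 in control libraries. Of the 10, Zbtb16 was called higher, Il2rb and Cxcr3 lower, and the other 7 were not called. The lower cKOHet sum follows Il2rb, at 10596 to 14344 in cKOHet and 19870 to 20474 in control libraries. It is not a fall shared by all 10 markers. Markers of some other cell types differed between the groups. Beside the marker calls given here, 11.5% of all tested genes were called higher and 9.97% lower. The 5 of 8 myeloid markers with a row summed to 143.5 to 273.4 in cKOHet and 30.04 to 72.6 in control libraries, with Adgre1 at 1.79 to 16.1 in cKOHet and 0.04 to 2.72 in control libraries. Csf1r, Clec4f and Itgam among them were called higher, of which Csf1r and Clec4f reached the filter in all cKOHet libraries and in a single control library. The 7 NK markers summed to 1868 to 3752 in cKOHet and 800.0 to 2813 in control libraries. Most of this sum was Klrb1c and Gzma, so it does not stand for NK cells alone. Klrb1c, also one of the 10 iNKT1 markers, was not called. It was at 859 to 1289 in cKOHet and 545 to 2626 in control libraries. Gzma was at 411 to 2719 in cKOHet and 71.0 to 141 in control libraries. Ncr1, an NK cell receptor gene, was at 5.52 to 7.05 in cKOHet and 8.45 to 9.47 in control libraries. Of the 6 NK markers that passed the filter, Eomes, Klra8 and Gzma were called higher. Klra8 passed the filter only through the cKOHet libraries (28.8 to 49.3, against 2.21 to 4.33 in control libraries), so it could enter the test only by differing. Eomes was low and the groups overlapped, at 12.5 to 26.2 in cKOHet and 0.07 to 12.6 in control libraries. The pair of CD8 T cell genes summed to 252 to 1693 in cKOHet and 23.7 to 42.2 in control libraries, with Cd8b1 at 13.6 to 35.4 in cKOHet and 3.56 to 31.5 in control libraries. Of 5 gamma delta T cell genes 3 had a row (Tcrg-C1, Tcrg-C2 and Tcrg-C4), and Trdc and Sox13 were not analysed here. These 3 summed to 2710 to 3316 in cKOHet and 2051 to 2512 in control libraries, and Tcrg-C2 was called higher (log2 fold change 0.59, adjusted p = 0.00608). The 6 hepatocyte genes summed to 255 to 622 in cKOHet and 192 to 374 in control libraries, mostly from Alb, which was not called. The means of Alb, Ttr, Serpina1a and Fabp1 were higher in cKOHet libraries. Those of Apoa1 (23.8 in cKOHet and 32.7 in control libraries) and Apoa2 (1.63 in cKOHet and 8.4 in control libraries) were lower. The 2 of 5 endothelial genes with a row summed to 48.9 to 52.4 in cKOHet and 172 to 224 in control libraries. That sum was mostly Pecam1, which was called lower. Stab2, which did not pass the filter, went the other way, at 1.01 to 12.4 in cKOHet and 0.04 to 3.67 in control libraries. The single erythroid gene of 5 with a row, Hba-a1, was at 7.40 to 33.2 in cKOHet and 0.00 to 0.06 in control libraries. None of 6 B cell markers was analysed here. The part of such cells in the changes of Ikzf2 and Ikzf3 was not tested. In cKOHet replicate 2, Cd8a, Gzma and the myeloid genes Itgam and Clec4f were the highest of the cKOHet libraries, while the myeloid genes Lyz2, Csf1r and Adgre1 were the lowest. Without that library the log2 fold change of Ikzf2 was 2.11 and that of Ikzf3 0.92. The other cKOHet libraries kept their myeloid signal. They also kept Cd8a at 237 and 440.2, against 10.7 to 20.1 in control libraries, so leaving the library out does not remove these signals.

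The genes whose profile over the 6 libraries was most like each risen member were found by the root mean square difference of the centred log2 profiles. They were sought among 8279 genes with a mean of at least 50, leaving out predicted genes and pseudogenes. For Ikzf2 these were Anxa2, a membrane-binding annexin, at a distance of 0.06 on the log2 scale, followed at 0.12 by St6galnac6, a sialyltransferase, Reep5, an endoplasmic reticulum protein, Swap70, a regulator of actin, and Ifng. Anxa2 averaged 2551 ± 204 in cKOHet and 562 ± 78.6 in control libraries, a fold change of 4.56, beside 4.41 for Ikzf2. For Ikzf3 they were Capn2, a calcium-dependent protease (0.07), Tmbim1 (0.08), and at 0.09 the calsyntenin gene Clstn1, the noncoding RNA Dubr and Eid1. Capn2 averaged 1679 ± 225 in cKOHet and 818 ± 52.9 in control libraries, a fold change of 2.04, beside 1.93 for Ikzf3. All these genes were chosen by likeness over the same 6 libraries. Their like fold changes follow from that choice and are a description only.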

How the data were processed

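RNA was sequenced from sorted liver iNKT1 cells, 3 cKOHet and 3 control libraries. The deposited signal per Ensembl gene is, by the name of the authors' table, a normalised HTSeq count. The submitters' processing notes name Trimmomatic 0.33, STAR, HTSeq 0.6.1, DESeq2 and mm10. The sources used here give neither their settings nor the annotation, strand use or read length. There are 12942 genes with a smallest gene maximum of 5.22, and GENCODE M21 named 12864 identifiers. Whole reads could not be recovered from the values, so the depth is unknown and no count model was used. Exact zeros were listed for 157 genes in cKOHet replicate 2, 208 in control replicate 1 and 0 in each other library. Small values such as 0.08 for Xist in cKOHet replicate 4 also occur. Whether the values were adjusted beyond scaling, which could bear on SEs and p-values, is not given in the sources used here.

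Values were analysed as log2(value + 1), which understates changes of low genes. The 11226 genes that reached 10 in 3 or more of the 6 libraries were fitted with limma 3.58.1 in R 4.3.3 with a mean-variance trend, cKOHet minus control, with Benjamini-Hochberg adjustment over all of them. The fit was tested on simulated read counts with a fixed spread. As depth and any adjustment of the deposited values are unknown, that test does not bear on their SEs and p-values. Lists are given by counts and medians. Named genes were the members, the called members of each list or the 2 with the smallest adjusted p, chromosome neighbours, markers and the 5 nearest profiles; Chd4, Ezh2, Ctbp1, Sin3a, Sin3b, Rbbp8 and other uncalled list members were named beyond that rule. The members and lists were chosen with earlier results of these data known.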

Additional observations from a re-analysis of the deposited data

How the results depend on the processing

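Under 18 alternatives (pseudocount, filter, scaling, variance model, a replicate block, Xist and each library left out), all 4 members kept their direction where called and their side of the threshold. Ikzf2 ranged from 2.02 to 2.29, Ikzf3 from 0.82 to 1.09, Ikzf1 from 0.05 to 0.27 and Ikzf5 from -0.12 to 0.19 on the log2 scale. The count of called genes, 2407, was 1476 at a threshold of 0.01. Of the partner and pathway genes with Ikzf4, 17 were called, and 9 without a mean-variance trend, 11 among the high-Xist libraries, 11 at a threshold of 0.01 and 11 to 16 with single libraries left out (11 without cKOHet replicate 4); beyond fewer libraries or a stricter threshold, the cause was not tested. Of 1289 values for 68 other genes (the lists, Ikzf4, Trps1 and Ets1), 47 lost their call and none changed direction while called. The Helios share of the family averaged 6.45% in cKOHet and 2.11% in control libraries, and 4.91% in cKOHet libraries with the longest coding transcript as length, and 9.91% in cKOHet and 3.52% in control libraries with the coding length (both chosen after seeing the data). The planned length from RefSeq proteins was not run. Same-numbered libraries deviated together only weakly (r of 0.09, 0.09 and 0.05 across genes, which are not independent), and the numbers were not taken as pairs. A weak r cannot exclude matching by number. In both groups low Xist fell on replicate 4 and the joined sample codes on replicate 1. Over all genes each library correlated best with its own number, but not over autosomal genes alone, where cKOHet replicate 4 had r of 0.01 with control replicate 4 and 0.05 with control replicate 1. Without a mean-variance trend Mta1, Mbd2, Aebp2, Crbn, Csnk2b, Maml2, Il2ra and Ikzf4 lost their calls (adjusted p 0.0508 to 0.158), as did Maml2 with a robust variance estimate (0.0814), Mbd2 with quantile normalisation (0.0516) and Csnk2b with library weights (0.0551). With the replicate block 2412 genes were called, and of the family, partner and pathway genes, Ikzf4, Trps1 and Ets1 only Crbn lost its call (adjusted p = 0.0587); cell type markers and nearest profiles were not run under the alternatives. The unknown depth limits statements on low genes such as Ikzf4.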
